A study of Homo sapiens with 4 samples.

Results

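The 10 genes considered here encode cytokines that NF-kB is known to control, namely IL6, LIF, IL1A, IL1B, IL23A, CSF1, CSF2, TNF, LTB and IL32. They were taken by name from the 19970 protein-coding genes of the GENCODE release 44 annotation. The rule used no measured value, although earlier results of these data were known when it was set. Every accessible site within 100 kb of one of their transcription start sites was counted once, which gave 397 of 307691 sites (0.129%). The assay was ATAC-seq, which uses a transposase that cuts open DNA, and the cells were SKBR3, a HER2-positive breast cancer cell line. All cells were starved for 8 h. Libraries came from 2 untreated cultures and from 2 cultures given 10 ng/ml TWEAK for 48 h, with the cytokine replenished after 24 h. TWEAK is a TNF family cytokine that signals through the receptor Fn14, and the study used SKBR3 as a line outside the triple-negative subtype.

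NF-kB dimers are held in the cytoplasm until a receptor of the TNF or interleukin-1 family releases them. In the nucleus they bind short kappa-B elements in promoters and enhancers, often beside AP-1 factors, and the cytokine genes of this group are textbook targets. Fn14 is known to engage both the canonical pathway and the slower non-canonical pathway that produces p52. Most of these cytokines are made chiefly by immune and stromal cells, and carcinoma cells can make some of them, such as IL-6, LIF and CSF-1, under inflammatory stimulation. A peak from a bulk culture does not tell whether more cells had the site open or whether it was more open in each cell.

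The data were 4 peak lists. The untreated lists held 208407 (replicate 1) and 228734 (replicate 2) peaks, and the TWEAK lists held 218423 and 195388. Each peak carried a value that orders the peaks of its list, and from it the read pileup and the background of the list were recovered. A peak was listed only from a pileup of 2.79 and 3.13 times the background in the untreated lists and of 3.04 and 3.79 times in the TWEAK lists, so the TWEAK replicate 2 list was the least sensitive. Absence from a list is therefore no sign of closed chromatin. The signal can lie below that limit or, with peaks of fixed width that do not overlap, be counted in a neighbouring peak. Promoters of the epithelial markers ERBB2, EPCAM, KRT8, KRT18, KRT19, GRHL2 and ESRP1 had a peak in all 4 lists, which is 7 of 8 markers. CDH1, the E-cadherin gene that SKBR3 is known to lack, had a promoter peak in no list. The median of the best promoter rank was 98.3 for the epithelial markers. Of the leukocyte markers, CD14 had a promoter peak in all lists and CD3E and CD2 in none. Endothelial and fibroblast markers had a promoter peak in all lists for 3 of 4 genes each.

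The number of peaks around the cytokine genes did not separate the groups. The lists held 266 and 286 peaks near the genes in the untreated cultures and 282 and 265 in the TWEAK cultures. The mean was 273.5 ± 12 (SD, n = 2) with TWEAK and 276 ± 14.1 (SD, n = 2) without, a difference smaller than the spread of either pair (exact permutation test, two-sided, p = 0.667). With 2 against 2 libraries this test cannot go below 0.333, so it cannot pass 0.05. This count also depended on the threshold. With only peaks of at least 5 times the background the difference was 21.5 more peaks with TWEAK, with no overlap between the groups. At that limit 5.90% of all sites had a peak in both TWEAK lists only and 2.33% in both untreated lists only. The lean toward TWEAK was thus not confined to these genes.

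Of the 397 sites, 172 (43.3%) had a peak in all 4 lists and are called shared. Sites are called gained where both TWEAK lists and no untreated list held a peak, and lost where both untreated lists and no TWEAK list did. There were 17 gained sites (4.28%), beside 3.60% of all sites, and 10 lost sites (2.52%), beside 3.79% of all sites. The gained share was near the background and the lost share lay below it. A further 114 sites had a peak in 1 list and 50 in 3 lists. The last 34 had a peak in 1 list of each group. Of the genes, 8 of 10 had a gained site within reach, the exceptions being IL6 and IL1B, while 63.2% of all protein-coding genes had one. A lost site lay near 8 of 10, all but IL1B and CSF2, beside 62.6% of genes.

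**Figure D1:**
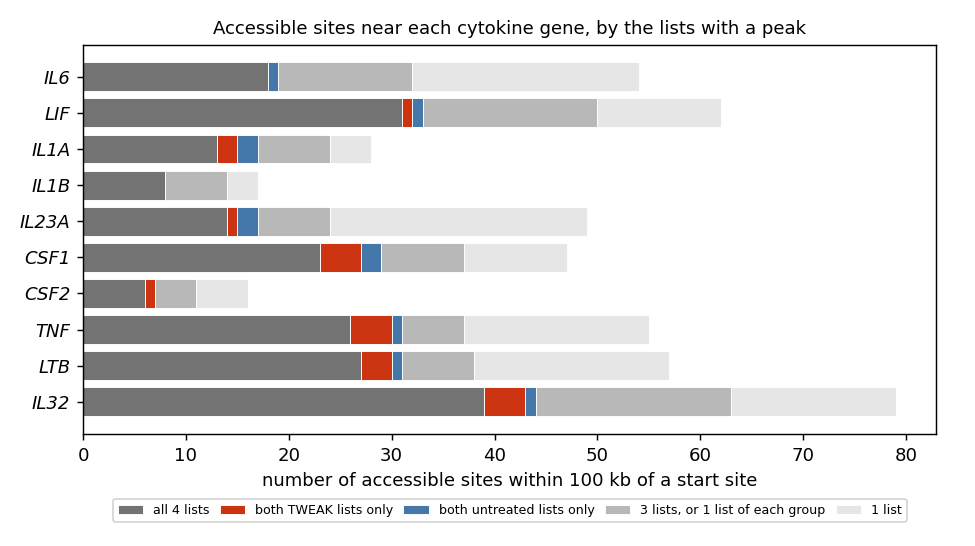
Number of accessible sites within 100 kb of a start site of each cytokine gene (bar length), split by the lists that held a peak; sites near both genes of a neighbouring pair are drawn under both. IL32 had 79 sites and CSF2 had 16, gained sites ranged from 0 to 4 per gene and lost sites from 0 to 2.

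The number of sites differed widely among the genes. IL32 had 79 sites, LIF 62, LTB 57, TNF 55, IL6 54, IL23A 49, CSF1 47, IL1A 28, IL1B 17 and CSF2 16, beside a median of 34 over all protein-coding genes. Several of these loci overlap. TNF and LTB start 6957 bp apart and shared 54 sites, and IL1A and IL1B start 52323 bp apart and shared 13, so the 10 genes form 8 separate loci. Other genes were close as well, and the nearest start site belonged to one of the cytokine genes at 94 sites (23.7%). The IL32 locus also holds TNFRSF12A, the gene of Fn14, which starts 46852 bp away and shared 62 of the 79 sites. By place, 155 sites were intergenic, 139 lay within 1 kb of a start site of any protein-coding gene, 72 in introns and 31 in exons.

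At shared sites the strength of the peaks could be compared as well. Each peak was given its rank percentile within its list, where 100 is the strongest peak, and a site counts as higher with TWEAK when both TWEAK percentiles lay above both untreated ones. By this measure 46 of 172 shared sites (26.7%) were higher, beside 15.8% of all shared sites. A further 49 (28.5%) were lower, beside 35.4% of all shared sites, and the groups overlapped at the other 77. On the scale of the pileup divided by the background of the list, 77 of 172 (44.8%) were higher, beside 34.8%, and 10 (5.81%) were lower, beside 12.2%. The balance of higher and lower sites thus turned over between these scales, near the cytokine genes as over the genome, while the share of higher sites was above the background on both. The median log2 ratio of TWEAK to untreated pileup over background was 0.19 near the cytokine genes and 0.14 over all shared sites. The median change in rank percentile was -0.66 and -1.75.

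**Figure D2:**
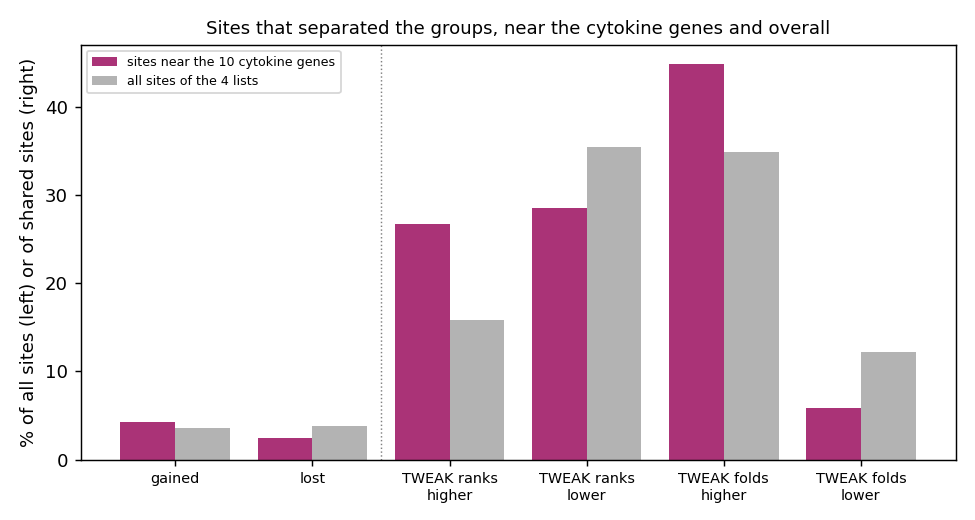
Percent of sites that were gained or lost (of all sites, left of the dotted line) or higher or lower with TWEAK without overlap of the groups (of shared sites, right), for sites near the 10 cytokine genes and for all sites; ranks and folds are the within-list rank percentile and the pileup over background. Higher ranks made up 26.7% near the cytokine genes and 15.8% overall.

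The mean rank percentile over the 172 shared sites was 71.2 and 73.2 in untreated replicates 1 and 2 and 73.7 and 70.8 in TWEAK replicates 1 and 2. The means were 72.2 ± 2.11 (SD, n = 2) with TWEAK and 72.2 ± 1.45 (SD, n = 2) without, and the difference of 0.0683 was well inside the spread (exact permutation test, two-sided, p = 1). CSF1 had the highest share of higher sites of the 8 loci, with 13 of its 23 shared sites higher (56.5%). Leaving out 1 locus at a time, a check added after the values were seen, moved the share of higher sites to between 22.1% without CSF1 and 30.8% without IL32.

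Promoters differed among the genes in which lists held a peak. Those of IL6, IL23A, CSF1 and TNF, 4 of 10, had a site in all lists within 1 kb of a start site, beside 76.0% of all protein-coding genes. IL32 alone had a gained promoter site, beside 6.00% of genes, a share not matched for its 26 annotated start sites. LIF had a lost promoter site only, LTB had a promoter peak in TWEAK replicate 1 only, and no list had a promoter peak for IL1A, IL1B or CSF2. At these last 3 genes no peak passed the listing limit of any library.

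**Figure D3:**
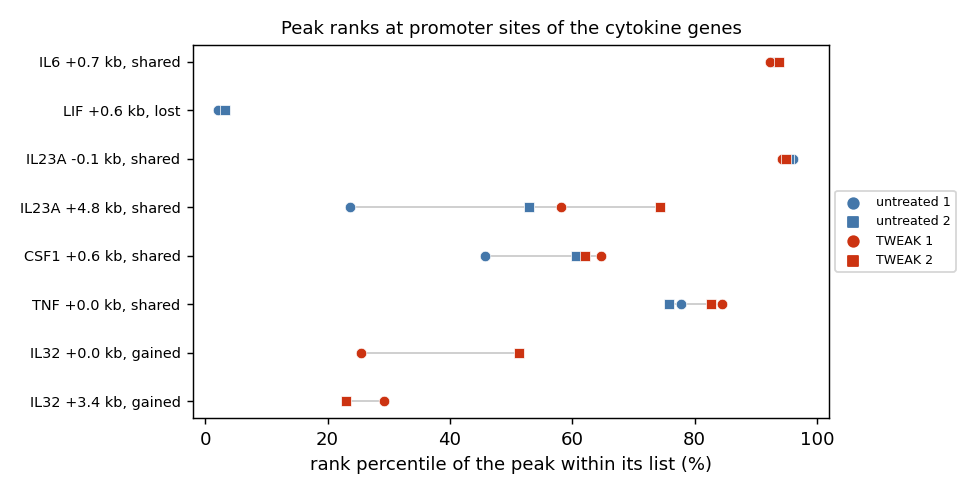
Rank percentile within its list (x axis, 100 is the strongest peak) of the peak at each shared, gained or lost promoter site of the cytokine genes, with the distance from the 5′ end of the gene record; circles are replicate 1, squares are replicate 2, blue is untreated and red is TWEAK. At TNF both TWEAK cultures (82.7 and 84.5) sat above both untreated cultures (75.8 and 77.8), while the IL6 values all sat between 92.4 and 93.8.

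The kappa-B consensus, a pattern of 10 letters, was searched on both strands of the RefSeq promoters (GRCh38.p14, 250 bases before to 50 after the start), which were at hand for 8 of the 10 genes, not for CSF1 and LIF. A match was found in 4 of the 8, those of IL6, IL23A, LTB and IL32, beside 11.3% of 34961 promoters. A gene counted if any of its promoters matched, while the shares over all promoters, here and for the patterns below, are per promoter. The units thus differ. A further LTB match, after the start, is not printed. The other matches are shown with 8 bases on either side because they mark where a kappa-B factor could sit relative to the peaks described next, and capitals mark the matched letters. The IL6 match is at chr7:22727119-22727144 on the plus strand, the LTB match before the start at chr6:31582494-31582519 on the minus strand and the IL32 match, where 2 matches overlap with a shift of 1 base, at chr16:3065296-3065321 on the plus strand (hg38).
IL6: tcaaatgtGGGATTTTCCcatgagtc
LTB: gggtgtgcGGAAAGTCCCagccaggt
IL32: tgtactcaGGGAGTTTCCCcagccag
For IL23A the 250 bases before the start are printed whole, chr12:56338634-56338883 on the plus strand, because the site over them was among the strongest risers. They hold the kappa-B match and, a few bases on, an AP-1 match (TGAGTCA).
IL23A: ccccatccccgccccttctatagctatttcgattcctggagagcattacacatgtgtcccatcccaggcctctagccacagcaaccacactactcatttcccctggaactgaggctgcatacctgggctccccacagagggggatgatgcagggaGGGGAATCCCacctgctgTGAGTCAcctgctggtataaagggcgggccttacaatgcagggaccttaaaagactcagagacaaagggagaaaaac
The AP-1 pattern (TGACTCA or TGAGTCA) was in the promoters of IL1A and IL23A, beside 4.92% of promoters, and the C/EBP pattern (TTGCNNAA) in those of IL6 and IL1B, beside 10.4%. A match of letters is a description and not evidence of a bound factor.

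IL6, on the plus strand at chr7:22725884-22732002, encodes interleukin-6, which signals through gp130 and is the classical inflammatory product of NF-kB. It had 54 sites, 18 of them shared, with no gained and 1 lost site. With only peaks of at least 5 times the background this became 1 gained and 0 lost. Leaving out 1 library makes both patterns easier to meet. Without untreated replicates 1 and 2 in turn there were 1 and 2 gained and 5 and 8 lost sites. Without TWEAK replicates 1 and 2 in turn there were 4 and 7 gained and 3 and 2 lost. Over all sites the gained share then ran from 6.54% to 11.6% and the lost share from 6.56% to 15.9%. The IL6 promoter site at chr7:22726338-22726843 was among the strongest peaks of every list, with rank percentiles of 93.1 and 92.9 untreated and 92.4 and 93.8 with TWEAK. The groups overlapped there, and the log2 ratio was 0.19. The kappa-B match lay outside this site, within a neighbouring peak that was called in untreated replicate 2 only, at 39.8 times the background and 269 bp from the nearest other untreated peak. The difference at IL6 was upstream, in an intron of STEAP1B. The site at -27.8 kb, chr7:22697837-22698362, had percentiles of 57.5 and 56.4 untreated and 82.0 and 79.9 with TWEAK. Its pileup was 9.20 and 9.39 times the background untreated and 28.5 and 30.9 times with TWEAK, which is a log2 ratio of 1.67. The neighbouring site at -29.0 kb, chr7:22696630-22697187, had percentiles of 51.7 and 53.0 untreated and 76.6 and 74.4 with TWEAK, a log2 ratio of 1.51. At both, the replicates of a group lay close together and the groups far apart. The 201 bases around the centre of the -27.8 kb site, chr7:22697994-22698194 on the plus strand, hold a kappa-B match (capitals).
IL6 -27.8 kb site: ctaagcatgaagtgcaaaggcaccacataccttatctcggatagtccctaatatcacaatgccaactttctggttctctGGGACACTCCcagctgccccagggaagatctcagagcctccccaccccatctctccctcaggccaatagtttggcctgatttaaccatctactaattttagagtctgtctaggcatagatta
Downstream, sites at 2.7 and 5.6 kb were higher too, with log2 ratios of 0.80 and 0.86. The lost site at -23.3 kb, in a STEAP1B intron, was weak, at 3.07 and 4.03 times the background, and TWEAK replicate 2 could not have listed its weaker value. Of the 18 shared sites 6 (33.3%) were higher and 1 (5.56%) was lower by rank, beside 15.8% and 35.4% of all shared sites.

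LIF, on the minus strand at chr22:30240453-30246759, encodes leukemia inhibitory factor, a gp130 cytokine like interleukin-6. It had 62 sites, of which 31 were shared, 1 was gained and 1 was lost. These counts depended on the threshold, since with only peaks of at least 5 times the background 6 sites were gained and 0 lost. They also depended on the libraries. Without untreated replicate 1 there were 6 gained and 5 lost, and without untreated replicate 2 there were 6 and 4. Without TWEAK replicate 1 there were 5 and 2, and without TWEAK replicate 2 there were 2 and 1. The lost site, at the promoter (chr22:30245893-30246480), had percentiles of 2.13 and 3.28 in the untreated lists. Its pileups were the lowest that those lists report, 2.79 and 3.13 times the background, and the TWEAK replicate 2 list could not have held either. LIF thus had no peak above the listing limit of all libraries at its own start. The higher sites lay together downstream of the gene, between 22.5 and 49.98 kb from its 5′ end, where 6 shared sites were higher. They were chosen for mention after their values were seen. At the strongest, chr22:30202419-30202939 at 44.1 kb, percentiles were 71.3 and 65.0 untreated and 90.0 and 86.7 with TWEAK, and the pileup rose from 15.1 and 12.5 to 46.0 and 43.3 times the background. That is a log2 ratio of 1.70. The other 5 had log2 ratios from 0.36 to 1.17. Closer to the gene, the site at 5.9 kb in a LIF exon went the other way, with percentiles of 33.1 and 22.8 untreated and 16.4 and 2.52 with TWEAK. Over the locus 8 shared sites (25.8%) were higher and 8 (25.8%) lower by rank, beside 15.8% and 35.4% of all shared sites. By pileup 17 (54.8%) were higher and 2 (6.45%) lower, beside 34.8% and 12.2%. The gained site, at -70.3 kb in an intron of TBC1D10A (chr22:30316782-30317289), was among the strongest gained sites, with TWEAK percentiles of 61.2 and 66.0 and no untreated peak within 1601 bp. OSM, the gene of the related cytokine oncostatin M, starts 20092 bp from LIF and shared 61 of these sites.

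**Figure D4:**
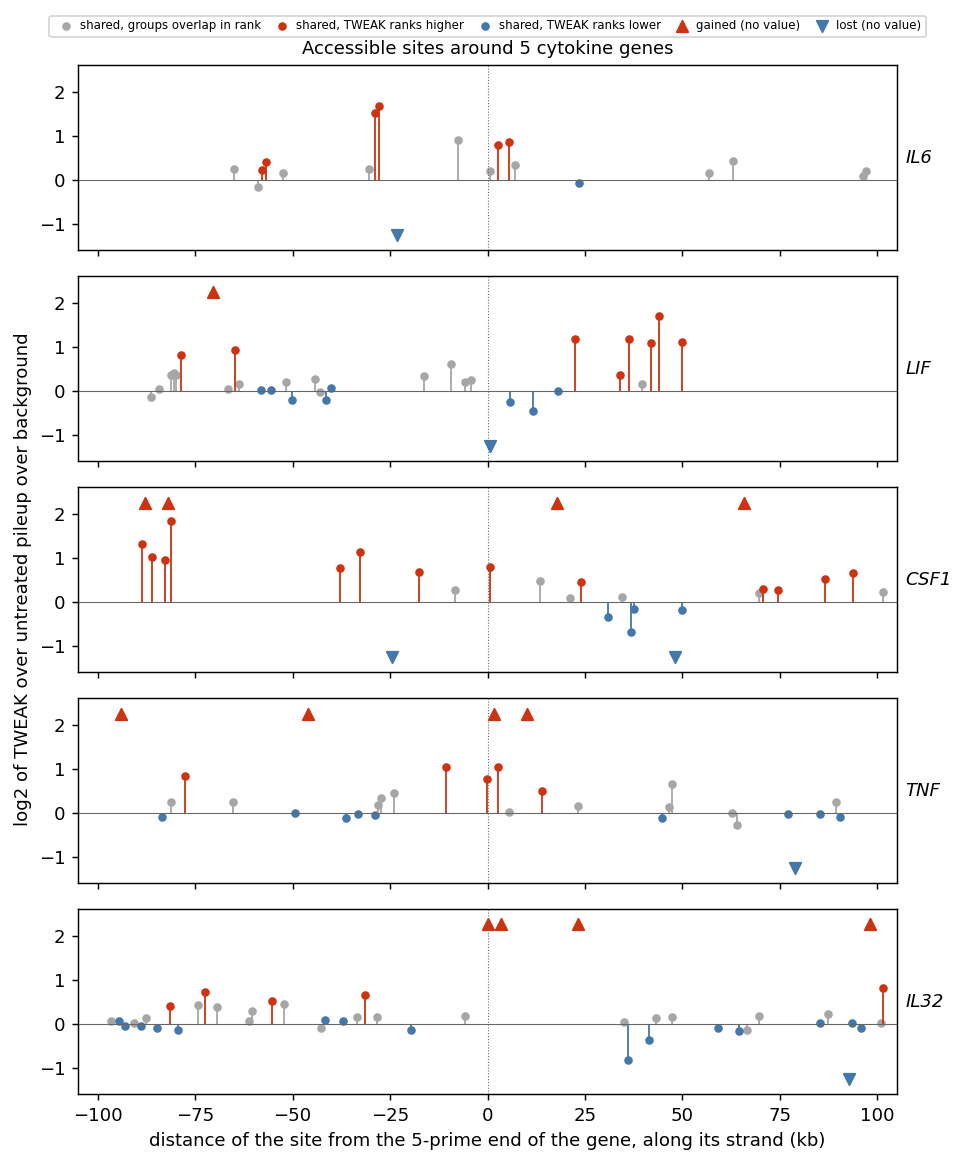
Shared sites around 5 of the cytokine genes, by distance from the 5′ end of the gene record along its strand (x axis, kb) and log2 ratio of TWEAK to untreated pileup over background (y axis); red and blue points are sites whose TWEAK rank percentiles lie both above or both below the untreated ones, grey points overlap, and triangles mark gained and lost sites, which have no ratio. The largest log2 ratios, 1.82 at CSF1, 1.70 at LIF and 1.67 at IL6, lay between 27.8 and 81.1 kb from the gene.

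IL1A and IL1B, the adjacent minus-strand genes of interleukin-1 alpha and beta at chr2:112773925-112784493 and chr2:112829751-112836816, had 28 and 17 sites. Both cytokines act on the same receptor and start inflammatory cascades. IL1A had 13 shared sites, of which 2 were higher and 5 lower by rank and 5 higher and 1 lower by pileup. IL1B had 8, of which 2 were higher and 2 lower by rank and 3 higher and 0 lower by pileup. Over both genes 21.4% of shared sites were higher and 35.7% lower by rank, and 42.9% higher and 7.14% lower by pileup. All shared sites gave 15.8% and 35.4% by rank and 34.8% and 12.2% by pileup. Neither gene had a site within 10 kb of its 5′ end in any list. The nearest site of IL1A, at -11.4 kb (chr2:112795633-112796142), was shared and strong, with percentiles of 94.5 and 97.2 untreated and 95.2 and 93.7 with TWEAK, and the groups overlapped. The gained sites of IL1A were at 76.9 and 56.0 kb, with percentiles from 7.37 to 34.6, and the lost sites at 64.1 and 53.5 kb. All of them had NT5DC4 as the nearest gene. The shared site at 99.0 kb, nearest to SLC20A1, had percentiles of 65.4 and 63.0 untreated and 44.9 and 47.4 with TWEAK and was among the 5 shared sites with the largest fall.

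IL23A encodes the p19 subunit that pairs with the p40 subunit of IL12B to form interleukin-23. The gene record, chr12:56334174-56340410 on the plus strand, opens with a transcript that starts beside the promoter of PAN2, and the site there (chr12:56333815-56334330) was strong in every list, with percentiles of 96.1 and 95.4 untreated and 94.3 and 94.9 with TWEAK. Both TWEAK ranks were lower by little, and on the pileup scale the groups overlapped (log2 ratio -0.01). The RefSeq start lies further downstream. The site over it, chr12:56338557-56339398 at 4.8 kb from the 5′ end of the record, had percentiles of 23.7 and 53.0 untreated and 58.1 and 74.4 with TWEAK. The pileup was 4.18 and 8.50 times the background untreated and 11 and 24.4 times with TWEAK, a log2 ratio of 1.46. Both TWEAK cultures were above both untreated cultures, although TWEAK replicate 1 exceeded untreated replicate 2 by little and the replicates of each group were far apart. It was the second largest rise in rank near the cytokine genes and the only one of the 5 largest that lay over a start site of its gene. IL23A had 49 sites, with 14 shared, 1 gained and 2 lost. The gained site, at -52.4 kb within 1 kb of a CS start, had percentiles of 38.1 and 27.3. The lost sites, at -45.5 and -31.0 kb, had percentiles of 33.1 at most. Of the shared sites 4 (28.6%) were higher and 6 (42.9%) lower by rank, beside 15.8% and 35.4% of all shared sites. By pileup 6 (42.9%) were higher and 0 lower, beside 34.8% and 12.2%. TWEAK replicate 2 had a peak at 18 of the sites and the other libraries at 28 to 30. Without TWEAK replicate 2 there were 10 gained and 3 lost sites, and without TWEAK replicate 1 there were 3 and 4. Without untreated replicate 1 there were 1 gained and 9 lost, and without untreated replicate 2 there were 2 and 11.

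CSF1 encodes macrophage colony-stimulating factor, the survival factor of macrophages. The gene, chr1:109910242-109930992 on the plus strand, had 47 sites, of which 23 were shared, 4 were gained and 2 were lost. Of the shared sites 13 (56.5%) were higher and 4 (17.4%) were lower by rank, beside 15.8% and 35.4% of all shared sites. The median log2 ratio of the 23 shared sites, 0.44, was the largest of the 10 genes. The mean rank percentile over its shared sites was 63.8 and 66.1 untreated and 70.1 and 67.1 with TWEAK. At its promoter site, chr1:109910470-109911120, percentiles were 45.8 and 60.6 untreated and 64.6 and 62.1 with TWEAK, a log2 ratio of 0.79. The groups did not overlap, but untreated replicate 2 and TWEAK replicate 2 were close. An intergenic stretch between -88.6 and -81.1 kb, nearest to EPS8L3, held 4 higher shared sites and 2 gained sites. At -81.1 kb, chr1:109828736-109829572, percentiles were 6.15 and 22.8 untreated and 54.6 and 65.1 with TWEAK. The pileup was 3.07 and 4.47 times the background untreated and 9.87 and 17.3 times with TWEAK, the largest rise near any of the 10 genes (log2 ratio 1.82). At -88.6 kb, chr1:109821231-109822071, percentiles were 40.2 and 46.5 untreated and 71.2 and 59.8 with TWEAK (log2 ratio 1.30). The 2 sites between, at -86.0 and -82.6 kb, had log2 ratios of 1.02 and 0.94 and were chosen for mention after their values were seen.

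Of the 4 gained sites of CSF1, 2 were among the 3 strongest of the 17. The first, in a CSF1 intron at 17.9 kb (chr1:109927855-109928361), had TWEAK percentiles of 68.2 and 70.0 and pileups of 15.6 and 20.6 times the background. An untreated peak lay 176 bp from it. The site at -87.9 kb (chr1:109822099-109822649) had percentiles of 53.3 and 56.0, with an untreated peak 55 bp away. Whether such a pair is 1 peak with a shifted summit was not tested. Both windows hold a kappa-B match and the upstream one an AP-1 match as well, in capitals in chr1:109928011-109928211 and chr1:109822249-109822449 on the plus strand.
CSF1 17.9 kb site: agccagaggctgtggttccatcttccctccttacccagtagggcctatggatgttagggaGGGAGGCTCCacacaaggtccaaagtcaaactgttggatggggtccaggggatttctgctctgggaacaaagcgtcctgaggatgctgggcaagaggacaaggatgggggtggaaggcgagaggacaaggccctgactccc
CSF1 -87.9 kb site: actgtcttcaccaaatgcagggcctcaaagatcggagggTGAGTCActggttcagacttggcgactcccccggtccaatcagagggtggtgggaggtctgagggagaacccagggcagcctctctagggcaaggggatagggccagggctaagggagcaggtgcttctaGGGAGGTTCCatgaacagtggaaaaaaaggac
The other 2 gained sites, at 65.7 and -82.0 kb, were weaker, with percentiles from 11.2 to 45.3. CSF1 also held the strongest lost site, at 48.1 kb (chr1:109958076-109958582), with untreated percentiles of 66.0 and 70.0 and no TWEAK peak within 1259 bp. The other lost site, at -24.5 kb, was weak (19.8 and 9.60). The shared site at 36.7 kb, chr1:109946663-109947206, was lower with TWEAK, with percentiles of 81.5 and 82.8 untreated and 66.9 and 66.0 treated (log2 ratio -0.68).

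CSF2, on the plus strand at chr5:132073789-132076170, encodes GM-CSF and lies beside IL3, with which it shared all 16 sites. Only 6 of these were shared by the lists. No list had a peak at the promoter, and inside the gene TWEAK replicate 1 alone had a weak intronic peak (16.4). The shared site at 16.5 kb, chr5:132090045-132090622, was lower with TWEAK, with percentiles of 40.2 and 53.0 untreated and 16.4 and 27.3 treated. On the pileup scale the groups overlapped, at 5.85 and 8.50 times the background untreated and 4.18 and 6.5 times with TWEAK. Sites a little further on, at 20.8 and 29.7 kb, were higher, with log2 ratios of 0.78 and 0.69. The gained site, at -53.2 kb, was weak (29.2 and 12.3) and nearest to ACSL6.

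TNF and LTB, the genes of tumour necrosis factor and of lymphotoxin beta, stand tail to tail within the class III region of the major histocompatibility complex. TNF runs on the plus strand at chr6:31575565-31578336 and LTB on the minus strand at chr6:31580525-31582522. The TNF promoter site, chr6:31575265-31575785, was shared, with percentiles of 77.8 and 75.8 untreated and 84.5 and 82.7 with TWEAK. The pileup was 20.1 and 19.7 times the background untreated and 32.7 and 35.2 times with TWEAK, a log2 ratio of 0.77, and the replicates of a group differed far less than the groups. No match to the kappa-B consensus used here was found in the 300 bases of the RefSeq TNF promoter, which says only that the pattern is not in that window. The end of the gene carried the larger change. There the site chr6:31577694-31578930 at 2.7 kb, chosen for mention after its values were seen, had percentiles of 84.4 and 84.6 untreated and 93.1 and 92.9 with TWEAK (log2 ratio 1.04) and held a kappa-B match. A weak gained site in a TNF exon (chr6:31576972-31577605), at 4.18 and 3.79 times the background, lay 122 bp from an untreated peak. Upstream, the site at -10.6 kb nearest to LTA was higher as well (log2 ratio 1.03).

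LTB itself had no promoter site in more than 1 list. TWEAK replicate 1 had a peak there with a percentile of 38.1, at chr6:31581315-31581815, and the shared site beside it in an LTB exon (86.1 and 81.0 untreated, 81.1 and 79.5 with TWEAK) overlapped between the groups. The kappa-B match of the LTB promoter was under no peak of any list. A gained site near LST1 lay -3.2 kb from LTB (chr6:31585465-31585974), with percentiles of 38.1 and 23 and no untreated peak within 3246 bp. The other gained sites of the locus were near MCCD1 and MICB, and the lost site was in an intron of APOM. Over the locus of both genes 5 of 27 shared sites (18.5%) were higher and 9 (33.3%) lower by rank. All shared sites gave 15.8% and 35.4%. By pileup 10 (37.0%) were higher and 1 (3.70%) lower, beside 34.8% and 12.2%. The sites with higher ranks were those at TNF and LTA named above and sites nearest to MICB and LST1.

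IL32 encodes a cytokine without a close relative in its family and is known as a TNF-inducible gene. It was the only one of the 10 with a gained site at its own start. The site chr16:3065044-3065586 covered the 5′ end of the gene (chr16:3065297-3082192, plus strand) and the kappa-B match printed above. Its TWEAK percentiles were 25.5 and 51.2, at 4.94 and 11.4 times the background, so that a limit of 5 times the background would leave it in 1 list. Untreated replicate 2 had a peak 304 bp from it. A further gained site at 3.4 kb, chr16:3068439-3068977, had percentiles of 29.2 and 23 and no untreated peak within 2047 bp. Gained sites at 23.3 and 98.2 kb were weak, and the second held a kappa-B match at chr16:3163434-3163459 (ttcaagctGGGATTTTCCaggctttg, plus strand). Of 39 shared sites 5 (12.8%) were higher and 15 (38.5%) lower by rank, close to the 15.8% and 35.4% of all shared sites. On the pileup scale 11 (28.2%) were higher and 2 (5.13%) lower, beside 34.8% and 12.2%. The mean rank percentile was 73.4 and 75.2 untreated and 73.2 and 69.1 with TWEAK. The shared site at 36.1 kb near ZSCAN10, chr16:3101059-3101757, had the largest fall near the cytokine genes, from 48.9 and 56.4 to 32.5 and 2.52. The lost site at 92.8 kb had untreated percentiles of 54.2 and 51.0 and a TWEAK peak 3 bp away.

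**Figure D5:**
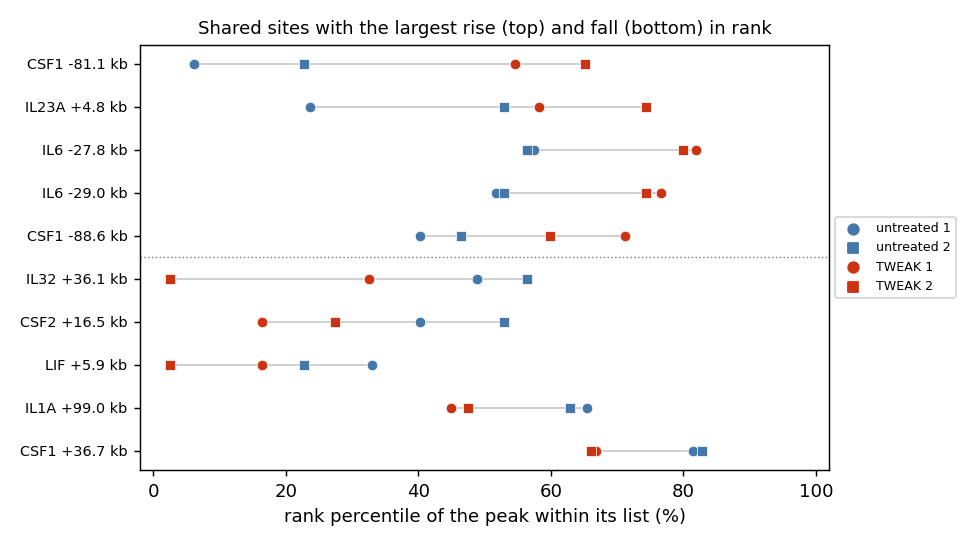
Rank percentile within its list (x axis) at the 5 shared sites with the largest rise (above the dotted line) and the 5 with the largest fall (below), among sites whose groups do not overlap, named by gene and distance from its 5′ end; circles are replicate 1, squares are replicate 2, blue is untreated and red is TWEAK. The rises run from 22.2 to 45.4 percentile points and the falls from -15.7 to -35.1.

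Most gained and lost sites were weak peaks. Only 3 of 17 gained sites ranked above the 50th percentile in both TWEAK lists, and 2 of 10 lost sites did so in both untreated lists. Because the listing limit of TWEAK replicate 2 was the highest, gained sites lay above the untreated limits almost by construction. Of the lost sites 5 of 10 had both pileups above the TWEAK limit of 3.79 times the background, so the other 5 could have been missed in TWEAK replicate 2. An untreated peak lay within 500 bp of 6 gained sites and a TWEAK peak within 500 bp of 2 lost sites.

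Kappa-B matches were counted in the 201 bases around the centre of the strongest peak of each site. They were found at 47 of the 397 sites (11.8%), beside 6.21% of all sites. Of these 15 were near IL32, 11 near LIF, 6 near TNF and LTB, 4 each near IL6, IL23A and CSF1, 2 near IL1A and IL1B and 1 near CSF2. A match was present in 4 of 17 gained sites, beside 20.1% of all gained sites, and in 0 of 10 lost sites, beside 4.29% of all lost sites. It was present in 9 of 46 higher shared sites (19.6%), beside 12.7% of all higher shared sites, and in 3 of 49 lower ones (6.12%), beside 3.94%. The windows near the cytokine genes held more G and C, 54.7% against 49.9% over all sites, and the part of this in the count was not tested. AP-1 matches were at 39 sites (9.82%), beside 9.02% of all sites, and in 2 of 17 gained sites (11.8%), beside 16.6% of all gained sites. They were in 11 of 46 higher shared sites (23.9%), beside 22.1%, and in 2 of 49 lower ones (4.08%), beside 6.00%. C/EBP matches, at 35 sites (8.82%), were below the 10.99% of all sites, and they were in 3 of 46 higher shared sites (6.52%), beside 16.4%.

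Other genes of the pathway were read in the same way. For 12 related cytokines and subunits, 38 of 330 shared sites (11.5%) were higher by rank with TWEAK and 154 (46.7%) lower, beside 15.8% and 35.4% of all shared sites. On the pileup scale 88 (26.7%) were higher and 49 (14.8%) lower, beside 34.8% and 12.2% of all shared sites. CSF3 alone held 88 of these shared sites, with 7 of the higher and 51 of the lower ones by rank. By pileup it held 15 of the higher and 20 of the lower ones. The shares without CSF3 were not computed. This list also includes OSM, IL3 and LTA, whose sites are largely those of LIF, CSF2 and TNF. Promoter sites were gained at CSF3, the gene of G-CSF, and at IL36G, and 5 of the 12 genes had a promoter site in all lists. For 12 receptors of these cytokines, 54 of 279 shared sites (19.4%) were higher and 90 (32.3%) lower by rank, and 106 (37.99%) were higher and 18 (6.45%) lower on the pileup scale. Their promoters had a site in all lists at 11 of 12, the exception being IL23R. IL6R had a gained promoter site and IL1RAP a lost one. For 19 NF-kB factors and feedback genes all promoters had a site in all lists. Gained promoter sites were found at 6 of the 19 (NFKBIE, NFKBIZ, TNFAIP3, TNIP1, BIRC2 and BIRC3), beside 6.00% of all genes, and TRAF1 had a lost one. Genes with many annotated start sites have more promoter sites, such as 18 at TNIP1, and the 6.00% was not matched for this. By rank 104 of 506 shared sites (20.6%) were higher and 165 (32.6%) lower, and on the pileup scale 198 (39.1%) were higher and 54 (10.7%) lower.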

How the data were processed

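ATAC-seq libraries from 2 untreated and 2 TWEAK-treated SKBR3 cultures were analysed. According to the methods and processing notes, the authors used Trimmomatic, Bowtie2 (hg38), Picard and MACS2, with versions and settings not given in the sources used here. The deposited lists hold 501-bp peaks called per library, each with a −log10 p-value. Whole-number pileups over 1 background per list matched the deposited −log10 values to within 0.00223 of a pileup step, and the caller's other convention would shift each pileup by 1. DiffBind needs reads and was not run. Peaks of chromosomes 1 to 22 and X overlapping by at least 1 bp were merged with pandas 2.3.3 and NumPy 2.4.6, and the best peak of a list stood for a site. Distances ran from the site edge to any GENCODE start site, and a promoter site lay within 1 kb. Group values were tested by exact permutation, two-sided (SciPy 1.17.1). Merging, ranking and recovery were checked on simulated data. The methods call replicates biological and place cell line experiments on different days, without assigning a library to a day.

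All gained and lost sites, the promoter sites nearest to the 5′ ends and the 5 shared sites with the largest rise and fall were to be named, with at most 12 gained sites. Further sites were chosen after their values were seen. The genes, lists and rules were chosen with earlier results of these data known. Sequences came from hg38 (pysam 0.24.0) and RefSeq. The leukocyte marker list is not reported here in full.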

Additional observations from a re-analysis of the deposited data

How the results depend on the processing

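Within 50 kb there were 209 sites, 7 gained and 6 lost, with 26 shared sites higher and 28 lower. With only peaks of a deposited value of at least 5 there were 5 lost sites (1.83%, beside 3.36% of all sites). The difference in peaks was then 14.5 (exact permutation p = 0.333, the smallest possible). A limit of 5 times the background left 4 lost sites (1.47%, beside 2.33% of all sites) and gave a difference of 21.5. Gained sites made up 5.86% and 6.25% at these limits, beside 4.82% and 5.90% of all sites. On the pileup scale 77 shared sites were higher and 10 lower. Without gained sites beside an untreated peak 11 were left. Leaving out 1 library gave 29 to 45 gained sites (7.88% to 11.7%), beside 6.54% to 11.6% of all sites. It gave 19 to 49 lost sites (4.95% to 13.3%), beside 6.56% to 15.9%. It also gave 53 to 77 higher and 64 to 91 lower shared sites and 5 to 8 gained sites with a kappa-B match. A pattern then needs fewer lists. The difference in peaks ran from -12.5 to 7.5, turning positive without untreated replicate 2 (7.5) or TWEAK replicate 2 (6). The difference in mean rank percentile ran from -1.36 to 1.75, turning negative without untreated replicate 1 (-0.506) or TWEAK replicate 1 (-1.36). With the replicate number as a block the differences were -2.5 peaks and 0.0683 percentile points (exact permutation p = 1 for both, smallest possible 0.5). Same-numbered libraries did not deviate together (r = -0.00607 on ranks over 131751 shared sites), so the numbers give no pairing. Of the gained and lost counts of single genes, 87 alternative values differed by more than 1.5 times from those reported. The direction at the 10 named shared sites cannot turn when a library is left out, since their groups were chosen not to overlap. A listing limit that differs between libraries bounds every count of gained and lost sites, and weak sites were not detectable below it.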

Other observations

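The following genes of the pathway lists were picked for their values. Over all sites 3.60% were gained. At IL6ST, the gene of the gp130 subunit through which interleukin-6 and LIF signal, 6 of 10 shared sites were higher by rank with TWEAK, 0 were lower and 3 of 21 sites were gained. At TNFAIP3, the gene of the NF-kB inhibitor A20, 10 of 15 shared sites were higher and 1 was lower, with 5 gained and 0 lost of 35 sites. At TNIP1, whose product binds A20, 21 of 54 shared sites were higher and 10 lower. At CSF3, in contrast, 7 of 88 shared sites were higher and 51 lower by rank, beside 15.8% and 35.4% of all shared sites. On the pileup scale 15 were higher and 20 lower, beside 34.8% and 12.2%. CSF3 had 181 sites, while 99.2% of protein-coding genes had fewer, and 10 of the 181 were gained.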
